A study of Mus musculus with 2 samples.

Results

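The DNA methylation machinery of adult mouse thymus was described through 9 genes that write, copy, recognise and remove methyl groups on cytosine: Dnmt1, Dnmt3a, Dnmt3b, Tet1, Tet2, Tet3, Uhrf1, Uhrf2 and Tdg. They were chosen by symbol and by no rule on their values, though with earlier results of these data known. All 9 were found among the 43346 genes of the deposited gene tables, with 71 of the 103639 transcripts. The data were 2 RNA-seq libraries of whole thymus from C57BL/6J mice at 8 weeks of age, labelled biological replicates 1 and 2. The mice were untreated as far as the labels say, and each library pooled male and female littermates. The labels give 2 biosamples but 1 donor entry, so the spread between the libraries may be technical in part. There was 1 group and therefore no contrast between conditions; the comparisons are between genes, between transcripts of a gene, and between the 2 libraries.

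DNA methylation in mammals sits mainly on cytosines followed by guanine. DNMT3A and DNMT3B place it on unmethylated DNA, and DNMT1 copies it to the new strand after replication, guided by UHRF1, which binds hemimethylated DNA; UHRF2 is its paralogue. TET enzymes oxidise 5-methylcytosine, and TDG, a thymine DNA glycosylase, cuts out the most oxidised forms so that base excision repair can put back plain cytosine. The thymus holds many dividing T cell precursors, in which the pattern has to be copied at each division.

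Replicate 1 held 48566863 fragments assigned to genes and replicate 2 held 62127220. All 11 T lineage genes examined were well expressed, from 118 TPM for Ptcra to 1391 TPM for Lck (mean of the libraries; TPM is a level scaled for transcript length and depth). A gene is called different between the libraries here when its adjusted p was under 0.05 and its fold at least 1.5. Of all tested genes, 49.2% were lower in replicate 2 and 3.83% were called lower. Other cells were present: 3 of 8 dendritic cell and macrophage genes were called higher in replicate 2 (Itgax, Xcr1 and Lyz2), as were 6.96% of all tested genes, and the summed level of the 8 went from 487 to 678 TPM. All 5 erythroid genes and 6 of 7 thymic epithelium genes were higher in replicate 2 with none called, summing to 4495 and 5463 TPM and to 1024 and 1354 TPM. The 4 granulocyte genes were all lower (52.7 and 40.3 TPM summed), with Ngp called. Of the 5 fat genes 4 were lower (1357 and 970.4 TPM), with Ucp1 called, and Adipoq was at 43.9 and 48.4 TPM. B and plasma cell genes (117 and 131 TPM) and endothelium and mesenchyme genes (132 and 157 TPM) each had 3 of 6 lower, with Jchain and Dcn called higher and Pax5 and Col1a1 called lower. The part of these cells in the differences given below was not tested. In whole tissue, fewer cells of a type and less RNA per cell cannot be told apart. The libraries differed by more than counting noise, with a median chi-square per gene of 6.32 where noise alone gives 0.455.

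The starts of these genes carry the same CG dinucleotides that their products modify, and for the 3 genes with more than 1 start in RefSeq (Dnmt1, Dnmt3a and Uhrf1) the transcript tables divided the signal between starts, so the bases before a pair of starts of each are shown. Each is the 250 bases upstream of a RefSeq start (GRCm38.p6), 5′ to 3′ on the strand of the gene, with every CG in capitals. The first pair belongs to Dnmt1 on the minus strand, at chr9:20959889-20960138 (upstream start) and chr9:20952980-20953229 (downstream start).
Dnmt1 upstream start: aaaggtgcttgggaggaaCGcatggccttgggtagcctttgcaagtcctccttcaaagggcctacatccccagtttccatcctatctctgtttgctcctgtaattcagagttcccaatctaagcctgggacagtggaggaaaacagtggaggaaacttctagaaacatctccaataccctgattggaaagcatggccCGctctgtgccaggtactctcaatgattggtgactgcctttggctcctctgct
Dnmt1 downstream start: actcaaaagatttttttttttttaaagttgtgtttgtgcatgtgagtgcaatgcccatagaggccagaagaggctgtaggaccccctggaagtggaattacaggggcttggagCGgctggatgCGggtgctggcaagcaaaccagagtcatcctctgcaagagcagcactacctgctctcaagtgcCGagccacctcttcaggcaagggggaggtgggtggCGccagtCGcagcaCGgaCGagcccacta
The upstream Dnmt1 window held 2 CG, below the median of 6 over the 32851 RefSeq promoter windows of this length, whose upper quartile was 16. The downstream window held 7. The remaining RefSeq start of Dnmt1, at 20952623, had 26 CG before it. Its window overlaps the first exon of the transcript from the downstream start (chr9:20952708-20952979).
The next pair belongs to Dnmt3a on the plus strand, at chr12:3806730-3806979 for the long form and chr12:3891494-3891743 for the short form.
Dnmt3a long form: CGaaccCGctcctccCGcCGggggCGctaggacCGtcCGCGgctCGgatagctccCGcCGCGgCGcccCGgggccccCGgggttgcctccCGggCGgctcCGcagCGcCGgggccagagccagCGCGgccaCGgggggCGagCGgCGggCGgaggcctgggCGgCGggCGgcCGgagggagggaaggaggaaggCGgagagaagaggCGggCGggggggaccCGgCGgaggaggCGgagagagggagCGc
Dnmt3a short form: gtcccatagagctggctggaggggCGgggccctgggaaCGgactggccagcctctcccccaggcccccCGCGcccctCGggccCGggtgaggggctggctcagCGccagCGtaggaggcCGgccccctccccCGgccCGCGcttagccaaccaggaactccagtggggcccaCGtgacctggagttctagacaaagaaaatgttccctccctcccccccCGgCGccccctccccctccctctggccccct
The long-form window held 38 CG, more than 98.1% of all windows, and the short-form window held 15.
The last pair belongs to Uhrf1 on the plus strand, at chr17:56303087-56303336 (upstream start) and chr17:56304063-56304312 (downstream start).
Uhrf1 upstream start: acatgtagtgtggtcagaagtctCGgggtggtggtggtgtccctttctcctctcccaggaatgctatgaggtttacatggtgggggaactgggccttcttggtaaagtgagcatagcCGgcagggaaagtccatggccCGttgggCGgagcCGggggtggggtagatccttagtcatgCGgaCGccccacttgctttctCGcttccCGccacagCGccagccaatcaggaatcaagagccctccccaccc
Uhrf1 downstream start: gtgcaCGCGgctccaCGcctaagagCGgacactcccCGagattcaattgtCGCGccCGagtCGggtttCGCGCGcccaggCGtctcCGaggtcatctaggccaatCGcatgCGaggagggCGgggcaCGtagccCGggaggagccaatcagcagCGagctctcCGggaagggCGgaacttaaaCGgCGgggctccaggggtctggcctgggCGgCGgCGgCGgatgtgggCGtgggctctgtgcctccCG
The upstream Uhrf1 window held 10 CG and the downstream window 30.

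RefSeq gave 14 starts for the 9 genes, and 13 of them had more CG than the median window; the exception was the upstream start of Dnmt1. The richest was Tet2 with 51 CG in 250 bases, followed by Dnmt3a, whose second long-form start had 40. Uhrf2 had 23, Dnmt3b 21, Tdg 19, Tet3 17 and Tet1 15. Beside CG, 4 short motifs were counted on both strands; none of them contains another. TTTNNCGC, letters found in E2F sites, was present in 4.28% of all windows. Each Uhrf1 window held 1 match, and the window of the remaining Dnmt1 start held 2 that overlap each other. GGGCGG, the core of an Sp1 site, was present in 32.7% of all windows and reached 5 matches in the long-form Dnmt3a window. CCAAT was present in 33.8% of all windows and occurred 4 times at the upstream Dnmt1 start. TATAAA was present in 12.4% of all windows and in 0 of these 14. A match is a string of letters and not a shown binding site.

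Levels spanned a wide range. Uhrf1 had the highest mean, 169 TPM ± 66.7 (SD, n = 2), and Dnmt3b the lowest, 3.67 TPM ± 0.311 (SD, n = 2). Between them stood Dnmt1, Uhrf2, Tdg, Dnmt3a, Tet3, Tet2 and Tet1, in that order. Not all neighbours in this order were apart across the libraries. The 2 values of Uhrf1 and Dnmt1 overlapped, as did those of Tdg and Dnmt3a, Dnmt3a and Tet3, and Tet2 and Tet1. Within each library, however, Uhrf1 was above Dnmt1, Dnmt3a above Tet3 and Tet2 above Tet1. Of the overlapping pairs only Tdg and Dnmt3a changed order, at 43.1 and 46.0 TPM in replicate 1 and 39.4 and 32.1 TPM in replicate 2. The widest gap lay below Tet3, whose mean was 5.60 times that of Tet2, with no overlap. All 9 exceeded 1 TPM in both libraries, against a median of 8.67 TPM over the 17198 genes that passed the count filter. Of these 17198 genes, 14147 had a mean of at least 1 TPM.

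**Figure D1:**
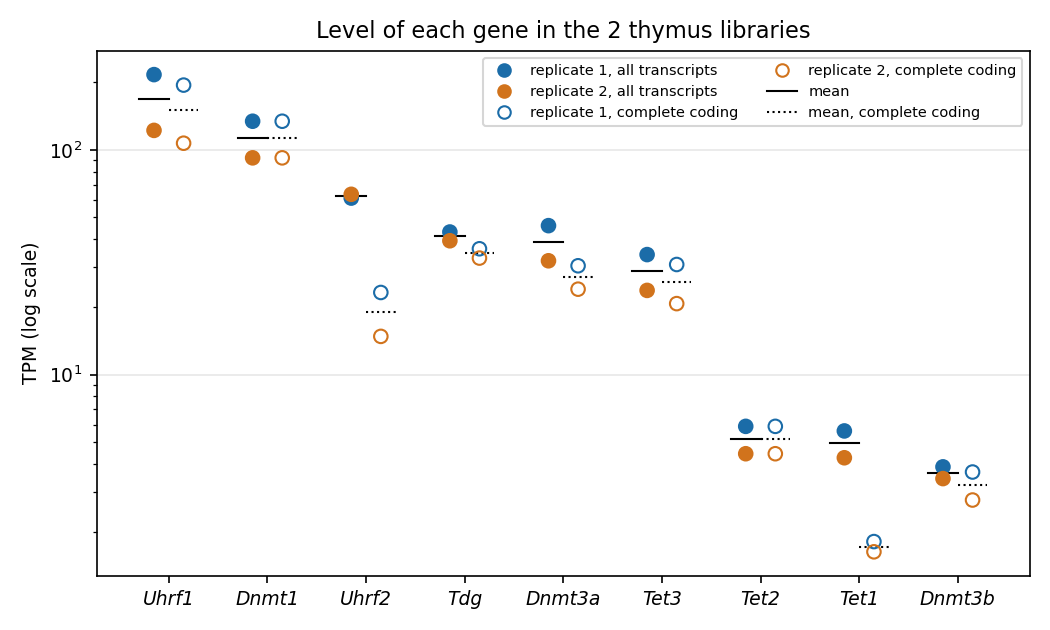
Level of each gene in TPM (log axis) in replicate 1 (blue) and replicate 2 (orange), over all transcripts (filled) and over complete coding transcripts alone (open); lines mark the mean of the 2 libraries. Uhrf1 and Dnmt1 stood highest on both scales, Uhrf2 stood at 62.2 TPM over all transcripts and at 23.2 and 14.8 TPM on its complete coding transcript, and replicate 1 was the higher library for every gene but Uhrf2 over all transcripts.

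Dnmt1 (ENSMUSG00000004099, chr9:20907209-20959888, minus strand), the maintenance methyltransferase, was at 134 TPM in replicate 1 and 92.1 TPM in replicate 2. These rested on 23839 and 22728 fragments, and the authors' deposited intervals (level not stated) were 131 to 134 and 90.2 to 92.6 TPM. Replicate 1 was the higher library, and the intervals did not overlap. Dnmt1 made up 72.9% of the summed TPM of the 3 methyltransferases in replicate 1 and 72.2% in replicate 2. By gene TPM that share was steadier than the level itself, at 72.5% ± 0.523 (SD, n = 2). By fragments the share was 75.3% and 72.1%, and on complete coding models 79.7% and 77.5%.

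Dnmt1 has 3 annotated transcripts, all complete and coding. The transcript with the upstream first exon (Dnmt1-202, 1501 codons) took 75.2% of the gene's TPM in replicate 1 and 73.5% in replicate 2. The one with the downstream first exon (Dnmt1-201, 1620 codons) took 23.9% and 25%. The third (Dnmt1-203, 1501 codons, start 20952623) took 0.843% and 1.54%. As background, the long protein is the usual form of somatic cells, and a shorter one that starts from an upstream exon is known from oocytes. The model with the CG-poor upstream start thus held most of the Dnmt1 signal in the deposited table for a somatic tissue.

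The annotation limits how far that split can be read. In the GENCODE M21 models, Dnmt1-201 and Dnmt1-202 differ in their first exons (272 bases at chr9:20952708-20952979 and 156 bases at chr9:20959733-20959888) and also at an internal exon, which is 79 bases long in Dnmt1-201 and 76 in Dnmt1-202. The difference is 3 optional bases at the start of that exon, chr9:20940552-20940554, shown in capitals in the coding strand of Dnmt1-201 with 30 bases on each side.
Dnmt1 optional bases: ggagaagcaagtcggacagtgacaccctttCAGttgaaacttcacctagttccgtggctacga
Fragments that cross this exon and fragments in the first exons both enter the split, so the choice of first exon and the choice of these 3 bases cannot be told apart in the deposited table. The deposited lengths of Dnmt1-201 and Dnmt1-202 were each 3 bases longer than in M21, and differed from each other by 119 bases in both.

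Uhrf1 (ENSMUSG00000001228, chr17:56303321-56323486, plus strand), the reader of hemimethylated DNA, was at 216 TPM in replicate 1 and 122 TPM in replicate 2, from 22785 and 17409.8 fragments. Replicate 2 was lower although it was the deeper library. By its mean, Uhrf1 stood above 93.5% of the protein-coding genes that reached 1 TPM on average.

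The 4 complete coding transcripts of Uhrf1 combine 2 first exons with 2 versions of an internal exon. The upstream first exon took 50.7% of the TPM in replicate 1 and 42.1% in replicate 2. The downstream one, with the CG-rich window, took 39.3% and 46.2%. Both starts were thus in use by these estimates, and the order of the pair changed between the libraries. The upstream start went from 109 to 51.2 TPM and the downstream start from 84.9 to 56.2 TPM. The deposited intervals cover single transcripts, so whether the summed starts differ in replicate 2 was not tested. Uhrf1-201 (upstream) and Uhrf1-204 (downstream) differ only in their first exons, of 241 and 46 bases, on which their split rests. The internal choice was more even between libraries, with the 782-codon form at 78.7% and 78.4% and the 774-codon form at 11.3% and 9.90%. The 774-codon form lacks 24 bases, or 8 codons, at chr17:56313041-56313064, shown in capitals with 30 bases on each side.
Uhrf1 optional bases: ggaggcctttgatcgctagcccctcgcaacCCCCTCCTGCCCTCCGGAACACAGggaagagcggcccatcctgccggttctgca
A pair of retained-intron models held the rest, 10% and 11.7% of TPM but 2.10% and 2.37% of fragments.

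Uhrf2 (ENSMUSG00000024817, chr19:30030513-30093722, plus strand), the paralogue of Uhrf1, was at 61.0 TPM in replicate 1 and 63.4 TPM in replicate 2. Most of that level did not come from its coding transcript. Uhrf2-208, a retained-intron model of 401 bases, took 43.3% and 48.8% of the TPM from 172 and 277 fragments. The only complete coding model, Uhrf2-201 with 803 codons, took 38.1% and 23.3% of the TPM from 2705 and 2380.2 fragments, which were 80.6% and 65.6% of all Uhrf2 fragments. On complete coding transcripts alone Uhrf2 was at 23.2 and 14.8 TPM, and it ranked 6 among the 9 genes, where it ranked 3 over all transcripts. Its complete coding values overlapped those of Tet3, which ranked 5, across the libraries. Within each library Tet3 was the higher, at 30.9 and 20.7 TPM.

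The direction of the Uhrf2 difference depends on the scale. By TPM replicate 2 was the higher library, and by scaled fragment counts it was the lower, with a log2 ratio of -0.32 (95% interval -0.39 to -0.25, counting error only). The 8 non-coding models together went from 650.5 to 1249.8 fragments, while the coding model went from 2705 to 2380.2. The mean transcript length that the table uses to scale the gene went from 1783 to 1395 bases. On complete coding transcripts, Uhrf1 made up 89.3% and 87.9% of the summed Uhrf TPM, against 78.0% and 65.8% over all transcripts.

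**Figure D2:**
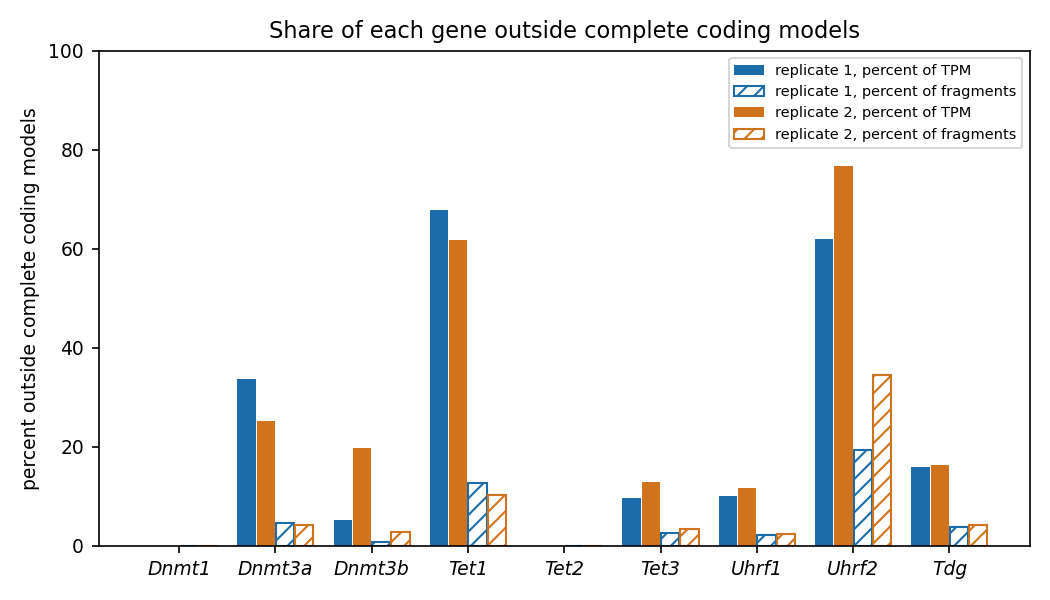
Percent of each gene's TPM (filled bars) and of its fragments (hatched bars) assigned to models other than complete coding ones, in replicate 1 (blue) and replicate 2 (orange). Uhrf2 reached 61.9% and 76.7% of TPM and Tet1 67.8% and 61.7%, each with a far smaller share of fragments; Dnmt1 and Tet2 have complete coding models only and stand at 0.

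Dnmt3a (ENSMUSG00000020661, chr12:3806007-3914443, plus strand), a de novo methyltransferase, was at 46.0 TPM in replicate 1 and 32.1 TPM in replicate 2, from 7305 and 8282 fragments. It made up 25% and 25.1% of the methyltransferase TPM. On complete coding models that share was 18.1% and 20.2%, and by fragments 23.1% and 26.3%, higher in replicate 2 on both. Its long form of 908 codons took 38.2% and 45.2% of the TPM. Its short form of 689 codons, which starts within the gene and lacks the first part of the protein, took 28.1% and 29.7%. As background, the short form is best known from embryonic stem cells and germ cells.

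Shares by TPM and by fragments differed in size though not in order. By fragments the long form held 79.8% and 80.6% and the short form 15.7% and 15.2%. Most of the short form's TPM came from Dnmt3a-205 (24.2% and 23.9%), whose last exon is 237 bases long where that of the long model Dnmt3a-201 is 6838. A nonsense-mediated decay model of 502 bases, Dnmt3a-216, took 21.7% and 10.8% of TPM from 100.2 and 48.2 fragments. On complete coding models alone Dnmt3a was at 30.5 and 24.0 TPM.

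Dnmt3b (ENSMUSG00000027478, chr2:153649450-153687730, plus strand), the other de novo enzyme, was at 3.89 TPM in replicate 1 and 3.45 TPM in replicate 2, from 499 and 523 fragments. It was the lowest of the 9 and made up 2.11% and 2.70% of the methyltransferase TPM. The form of 776 codons took 73.0% and 55.1% of its TPM, and the full form of 860 codons took 21.9% and 25.2%. The 776-codon form was the larger in both libraries.

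That form skips 3 coding exons of the full form, of 60, 70 and 119 bases. It also skips 3 bases at the start of another exon (the model of 860 codons begins it at 153675726 and that of 776 codons at 153675729). The larger 776-codon model, Dnmt3b-206, further lacks an exon of 115 bases (chr2:153650785-153650899) that the 860-codon model Dnmt3b-201 has. That exon is not among the coding ones. The 3 coding exons are shown because they separate the abundant form from the full one: chr2:153670849-153670908, chr2:153683608-153683677 and chr2:153684359-153684477, plus strand, with no part in capitals.
Dnmt3b skipped exon of 60 bases: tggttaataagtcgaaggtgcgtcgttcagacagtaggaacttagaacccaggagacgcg
Dnmt3b skipped exon of 70 bases: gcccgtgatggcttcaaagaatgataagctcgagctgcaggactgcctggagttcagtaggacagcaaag
Dnmt3b skipped exon of 119 bases: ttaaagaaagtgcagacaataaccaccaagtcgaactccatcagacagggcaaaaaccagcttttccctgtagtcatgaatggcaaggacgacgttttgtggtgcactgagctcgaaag
As background, the pair of exons near the end of the gene encodes part of the catalytic domain, and forms without it are known as inactive partners of the active enzymes. The forms of 796, 839 and 859 codons were listed at 0 in both libraries, although the authors' posterior mean estimates gave each of them 2.54% to 7.33% of the TPM. With 499 and 523 fragments for 12 models, the split among Dnmt3b forms varied: the share of Dnmt3b-206, a 776-codon model, was 67.4% in replicate 1 and 40.3% in replicate 2.

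**Figure D3:**
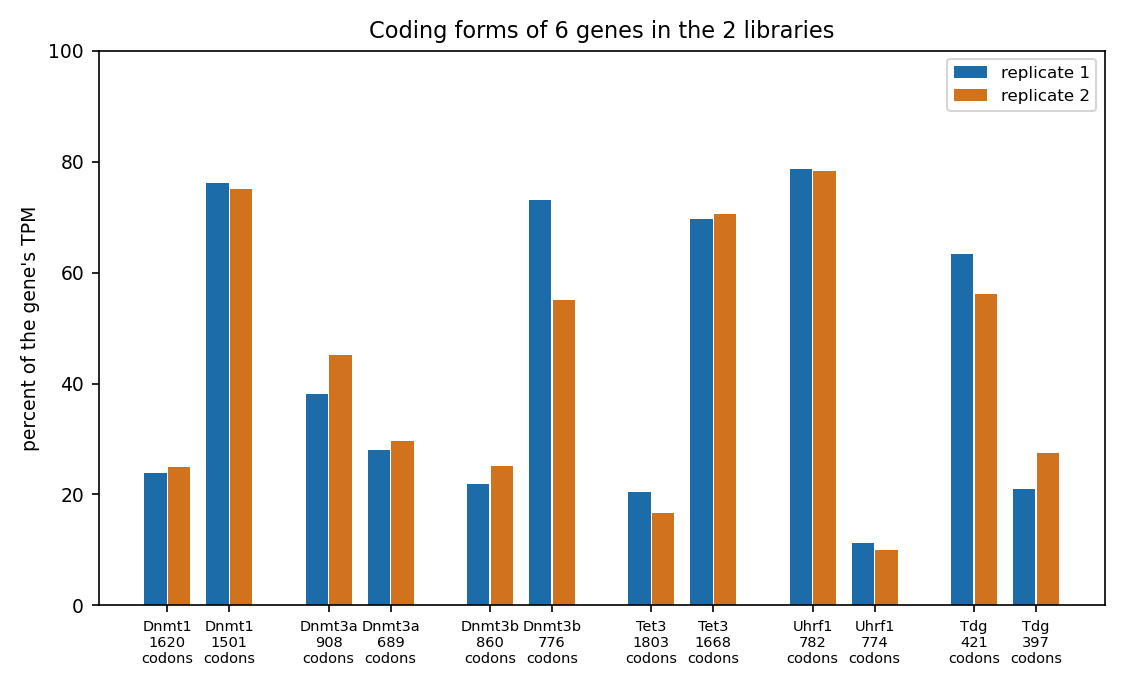
Percent of each gene's TPM in its main coding forms, by number of codons, in replicate 1 (blue) and replicate 2 (orange). The 1501-codon form of Dnmt1, the 776-codon form of Dnmt3b and the 1668-codon form of Tet3 outweighed the longer forms beside them in both libraries.

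Tet3 (ENSMUSG00000034832, chr6:83362373-83459084, minus strand) was the main Tet enzyme at 34.2 TPM in replicate 1 and 23.7 TPM in replicate 2, from 10615 and 10138 fragments. It made up 74.8% and 73.1% of the summed Tet TPM, and 80.0% and 77.3% on complete coding models. The 1668-codon form (Tet3-202) took 69.7% and 70.6% of Tet3 TPM. The 1803-codon form (Tet3-203), which carries the CXXC domain that binds CG-rich DNA and begins at 83456392, took 20.5% and 16.6%, or 7.02 and 3.93 TPM; its last exon is 1784 bases long where that of Tet3-202 is 7453. A non-coding model, Tet3-201, took 9.74% and 12.8%.

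Tet2 (ENSMUSG00000040943, chr3:133463679-133545139, minus strand), a gene often mutated in blood cancers, was at 5.89 TPM in replicate 1 and 4.45 TPM in replicate 2. It was the only one of the 9 with a single transcript in the table, Tet2-201 of 1912 codons, so its level carries no split. The 1850 and 1940 fragments gave deposited intervals of 5.57 to 6.10 and 4.23 to 4.62 TPM, which did not overlap.

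Tet1 (ENSMUSG00000047146, chr10:62804570-62908996, minus strand), known for its role in embryonic stem cells and germ cells, was at 5.62 TPM in replicate 1 and 4.27 TPM in replicate 2. By gene TPM it was just below Tet2 in each library. Its deposited intervals, 4.94 to 6.71 and 3.83 to 5.07 TPM, overlapped those of Tet2 in both. Most of the Tet1 level came from Tet1-205, an incomplete coding model of 1197 bases, with 64.4% and 60.3% of the TPM from 125 and 122 fragments. The complete model Tet1-201, of 13986 bases and 2007 codons, held 82.9% and 89.8% of the fragments but 30.6% and 38.3% of the TPM. The 2039-codon model Tet1-206 was at 0.0900 TPM in replicate 1 and listed at 0 in replicate 2.

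On complete coding models, Tet1 was at 1.81 and 1.63 TPM, the lowest of the 9, and Tet2 at 5.89 and 4.45 TPM no longer overlapped it. The Tet1 share of the Tet TPM was then 4.69% and 6.09%, against 12.3% and 13.2% over all transcripts. The scale thus set whether Tet1 or Dnmt3b came last.

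Tdg (ENSMUSG00000034674, chr10:82629828-82650799, plus strand), the glycosylase that removes oxidised methylcytosine, was at 43.1 TPM in replicate 1 and 39.4 TPM in replicate 2, from 4177 and 5201 fragments. It differed least between the libraries by counts. The 421-codon form (Tdg-208) took 63.4% and 56.2% of TPM and the 397-codon form (Tdg-201) 20.9% and 27.4%. These forms differ in their first exon (180 and 112 bases) and in the length of their last exon (2222 and 1747 bases).

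All 9 genes were lower in replicate 2 when the fragments were scaled for depth and composition; by TPM, Uhrf2 was not. Each difference had an adjusted p under 0.05 by an exact binomial test of the 2 libraries (edgeR, Benjamini-Hochberg over 17198 genes), as did 26.9% of all tested genes in that direction. The test compares these 2 libraries and their counting error, not conditions or mice. The median log2 ratio of the 9 was -0.36, against 0.01 over all tested genes, of which 49.2% were lower in replicate 2. The log2 ratios were -0.50 for Dnmt1, -0.50 for Tet3, -0.36 for Dnmt3b and for Tet2, -0.25 for Dnmt3a, -0.15 for Tet1 and -0.12 for Tdg. By TPM (pseudocount 0.1) they were -0.52 for Dnmt3a, -0.39 for Tet1 and -0.17 for Dnmt3b. The smallest count ratios, for Tet1 and Tdg, had adjusted p of 2.80e-02 and 3.77e-04 in the exact test.

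Only Uhrf1 also differed by at least 1.5-fold. Its counts were 1.77-fold higher in replicate 1 (95% interval 1.73 to 1.80, counting error only), a log2 ratio of -0.82. A count of 1 of 9 called is close to the background: 10.8% of tested genes passed the same rule in either direction, 3.83% lower and 6.96% higher in replicate 2. Uhrf1 was not called by a negative binomial test that takes the overall spread between the libraries (biological coefficient of variation 0.215) as its error (unadjusted exact p = 0.065), nor at a 2-fold threshold.

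**Figure D4:**
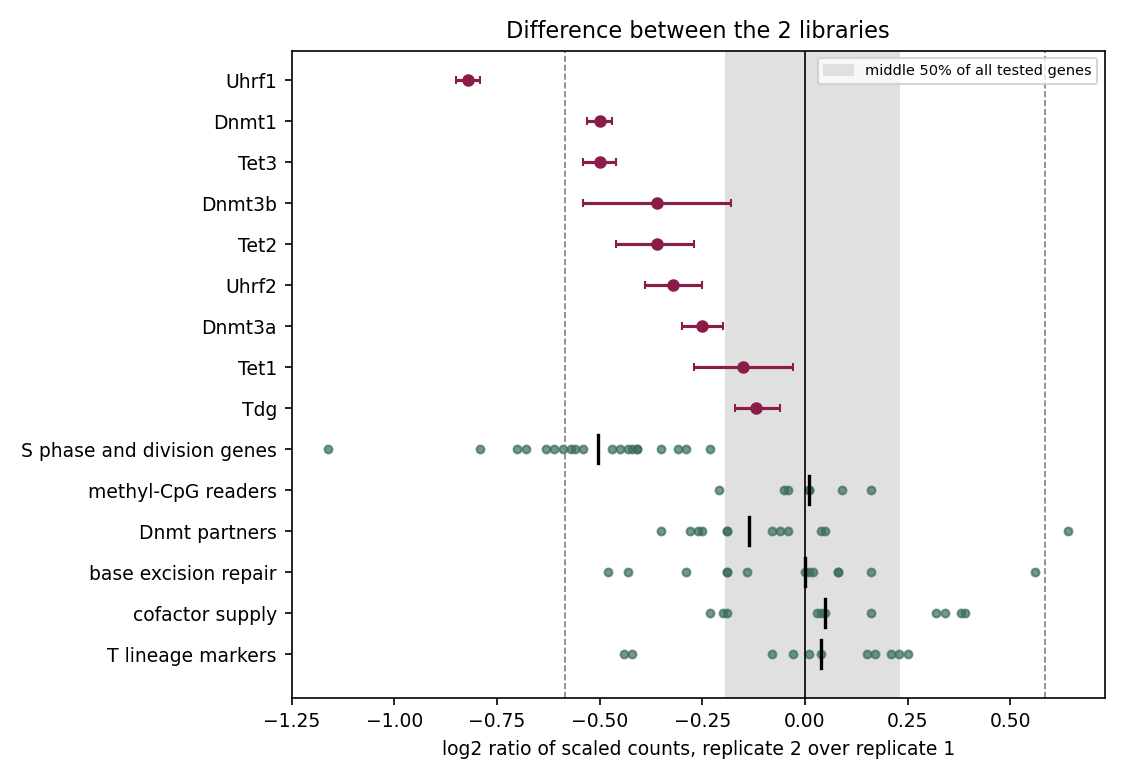
Log2 ratio of scaled counts, replicate 2 over replicate 1, for the 9 genes (red, with 95% counting intervals) and for the genes of 6 lists (green points, list medians as black bars); the grey band holds the middle 50% of all tested genes and dashed lines mark 1.5-fold. All 9 genes lie left of 0 on this count scale (by TPM Uhrf2 does not) and of the 9 only Uhrf1 lies past the dashed line; the S phase and division genes lie to the left as well, with a median of -0.51.

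Genes of DNA replication and division lay in the same direction. All 20 of a list of S phase and division genes were lower in replicate 2, with a median log2 ratio of -0.51, and 7 of the 20 were called lower at 1.5-fold, where 49.2% of all tested genes were lower and 3.83% were called lower. Their summed level went from 2794 to 1887 TPM. The 7 were Rrm2, a subunit of ribonucleotide reductase, at 139 and 61.0 TPM, the proliferation marker Mki67 at 25.9 and 14.6 TPM, and Ccna2, Cdt1, Mcm4, Mcm3 and Aurkb. Of the list, Pcna had the highest mean, 347 TPM, and Cdc6 the lowest, 8.39 TPM. The part of dividing cells in the difference of the 9 genes was not tested. Of the T lineage genes, 4 of 11 were lower in replicate 2, with a median of 0.04 and none called.

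Longer genes were slightly lower in replicate 2. The median log2 ratio was 0.08 in the 4300 shortest tested genes and -0.05 in the 4300 longest, which held 6 of the 9. The ratios of these 6, from -0.50 to -0.15, were larger in size than that shift, and its part in them was not tested.

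RNA was detected for every gene on the list of methyl-CG readers and their relatives. The 7 genes ranged from 227 TPM for Mbd3, a subunit of the NuRD complex, to 6.64 TPM for Zbtb38. None of the 7 was called at 1.5-fold, where 10.8% of all tested genes were called in either direction. Of the 7, 3 were lower in replicate 2, and the median log2 ratio was 0.01.

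Partners and recruiters of the methyltransferases had a median of 71.6 TPM, where the 9 genes had 39.0 TPM. Trim28, a co-repressor that brings methylation to retroelements, was highest at 755 and 712 TPM. Of 13 genes, 12 had a mean of at least 1 TPM, and Dppa3, which keeps Uhrf1 off chromatin in oocytes, was lowest at 0.0600 and 0.200 TPM. Among the 12 tested, 9 were lower in replicate 2 with a median log2 ratio of -0.14. The one call was Dnmt3l, the inactive cofactor of the de novo enzymes. It was higher in replicate 2 at 1.38 TPM against 0.780 TPM, from 91 and 43 fragments. Of all tested genes, 10.8% were called in either direction. Hells and Cdca7, which form a remodeller needed for methylation, were at 4.23 and 264 TPM in the mean and were not called.

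Of the other members of the methyltransferase family, Trdmt1, which methylates transfer RNA, was at 2.34 and 2.35 TPM. Dnmt3c, a rodent enzyme of male germ cells, was listed at 0 with no fragment in either library.

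Partners of the Tet enzymes ranged from 189.6 TPM for Hcfc1, a transcription cofactor that OGT cleaves, to 0.175 TPM for Cxxc4. Ogt, which binds Tet2 and Tet3, was at 160.5 and 181 TPM. Wt1, a transcription factor that recruits Tet2, was called higher in replicate 2 at 3.05 TPM against 1.56 TPM, from 208 and 76 fragments. It was the only one of the 4 tested to be called, where 10.8% of all tested genes were called in either direction.

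The base excision repair list had 13 of 14 genes at a mean of at least 1 TPM. It had no call among 13 tested, where 10.8% of all tested genes were called. Parp1, which senses strand breaks, was highest at 43.5 TPM in the mean, next to Apex1, the endonuclease that cuts the abasic site, at 43.4 TPM. Neil2 was lowest at 0.120 TPM. Mbd4, a glycosylase that like Tdg acts on mismatched thymine, was at 8.03 and 6.83 TPM, well below Tdg. The median log2 ratio of the list was 0.00.

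Cytidine deaminases have been proposed as another route of demethylation. Apobec3, a restriction factor against retroviruses, was the highest at 72.7 TPM in the mean. Apobec2 was at 1.00 TPM in replicate 1 and 7.23 TPM in replicate 2, from 35 and 352 fragments, and was called higher (7.36-fold). Of the 4 deaminases tested only Apobec2 was called, where 6.96% of all tested genes were called higher. Apobec2 is best known from skeletal muscle.

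RNA of the enzymes that supply methyl groups and 2-oxoglutarate was present for 11 of 11, at a mean of at least 1 TPM. That level was reached by 14147 of the 17198 tested genes. None of the 11 was called, where 10.8% of all tested genes were called. Idh2, a mitochondrial isocitrate dehydrogenase, was highest at 141 and 177 TPM. Mat2a, which makes S-adenosylmethionine, was at 63.5 and 80.9 TPM. The list had a median log2 ratio of 0.05, with 3 of 11 lower in replicate 2.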

How the data were processed

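The expected counts were deposited by the authors as estimated fragments per gene and per transcript, with posterior mean counts and their standard deviations, per the file headers. TPM, deposited by the authors, was scaled to a common total that counts spike-ins as well as genes. Features were those of GENCODE M4 on mm10, per the deposited text files; quantifier and aligner: not given in the sources used here. The TPM interval bounds and transcript lengths are the authors' own columns.

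Of 69691 features, 43346 were genes and 42462 had a symbol. The features other than genes (spike-ins, tRNAs) held 1.49% and 1.48% of fragments and were left out of tests. Among them, 26248 had numeric IDs and held 0 fragments. Transcripts were matched by ID to GENCODE M21, where 68 of 71 kept their length; the other 3 are those of Dnmt1. A coding model was complete when M21 did not mark an open end. Counts were rounded and scaled by TMM (edgeR 4.0.16), genes filtered with filterByExpr (17198 left), and the 2 libraries compared by edgeR's exact binomial test with Benjamini-Hochberg adjustment; the ratio adds 0.5 to each count. This test has no residual replication. Alternatives used DESeq2 1.42.0 size factors, library totals and others listed in the closing section.

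All 9 genes were named, with transcripts at 10% or more of the TPM or with the longest coding sequence, and in each pathway list the highest, the lowest and each called gene; other listed genes were added for their role after their values were seen. The lowest genes of 2 pathway lists are not reported here. The members and lists were chosen with earlier results of these data known. The mm9 contig and junction files were not used, since coordinates were not converted between builds. Promoter windows came from RefSeq (GRCm38.p6).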

Additional observations from a re-analysis of the deposited data

How the results depend on the processing

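At 1.5-fold, 1 of the 9 genes and 1856 of all tested genes differed between the libraries. With DESeq2 size factors, library totals or no low-count filter the count of the 9 stayed at 1 and that of all genes within 1.5 times. A 2-fold threshold left 0 of the 9 and 780 genes. No fold threshold gave 9 and 8938. The negative binomial test gave 0 and 218, with 0 of the 9 and 704 genes at an unadjusted p under 0.05. The log2 ratio of Uhrf2 was 0.05 by TPM with a pseudocount of either 0.1 or 1, opposite in sign to its count ratio; the other 8 genes kept their sign, but with a pseudocount of 0.1 the ratio was -0.52 for Dnmt3a (-0.25 by counts), -0.39 for Tet1 (-0.15) and -0.17 for Dnmt3b (-0.36). Library totals shifted all log2 ratios by 0.076 and DESeq2 size factors by -0.0076. Posterior mean TPM moved none of the 9 levels and none of the 9 leading transcript shares beyond the SD of the libraries. Smaller shares were not all as steady. The 860-codon form of Dnmt3b held 16.1% and 20.6% by posterior mean, against 21.9% and 25.2% by TPM. Scaling TPM to protein-coding genes outside the mitochondrial genome raised every level in nearly the same ratio (Dnmt1 to 147 TPM) and moved 8 of 9 beyond that SD. Complete coding transcripts alone, a choice made after seeing the data, moved 5 of 9 levels and 7 of 8 family shares beyond that SD, and fragments in place of TPM moved 5 of 9 leading transcript shares and 8 of 8 family shares. CPM, which has no length scaling, moved 8 of 9 levels and put Dnmt1 (428) above Uhrf1 (375) and Tet3 (191) above Uhrf2, Tdg and Dnmt3a. No paired analysis of conditions was possible because the 2 libraries form a single group. Values of different genes in the same library are paired, but no test was run on such pairs. With 2 libraries, an SD has 1 degree of freedom, and intervals cover counting error only. Levels of Dnmt3b and Tet1 and their transcript splits rest on the fewest fragments of the 9.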
